A study of Oryza sativa with 7 samples.

Results

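The rice PLETHORA-like genes are a family of AP2-domain transcription factors, named OsPLT1 to OsPLT9. They were taken as a fixed list of 9 loci that includes CROWN ROOTLESS5 (CRL5, also called OsPLT8), and all 9 were found among the 24775 identifiers in the tables. They lie on chromosomes 1, 2, 3, 4, 6, 7 and 11, as read from the locus identifiers: OsPLT1 (LOC_Os04g55970), OsPLT2 (LOC_Os06g44750), OsPLT3 (LOC_Os02g40070), OsPLT4 (LOC_Os04g42570), OsPLT5 (LOC_Os01g67410), OsPLT6 (LOC_Os11g19060), OsPLT7 (LOC_Os03g56050), CRL5 (LOC_Os07g03250) and OsPLT9 (LOC_Os03g07940). The files give the identifiers with no names. The source of the list states the locus of OsPLT3 and of CRL5, and the other OsPLT numbers were given by the order of the list. Expression was measured by RNA sequencing in tissue collected by laser capture microdissection, a way of cutting out selected cells from a section under the microscope. All tissue came from the stem base of wild-type seedlings of the rice cultivar IR64, grown for 6 days on diluted MS medium. The groups were crown root primordia at initiation (3 libraries), crown root primordia at outgrowth (2 libraries) and ground tissue, the control (2 libraries). Which plants went into which library is not stated, so each p-value reflects the spread among the libraries alone, and that spread may be technical.

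PLETHORA proteins bind DNA through paired AP2 domains. In Arabidopsis they act downstream of auxin, form gradients across the root tip, and keep the root stem cells in place and dividing. Other members of the family, the BABY BOOM type, can start embryo growth when expressed outside their normal place, and in rice OsPLT3, OsPLT4, OsPLT5 and OsPLT6 are also known by BABY BOOM names. CRL5 is induced by auxin in the rice stem, and crl5 mutants start fewer crown roots, the roots that arise from the stem and form the bulk of the rice root system. It acts in part by raising a repressor of cytokinin signalling.

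Library totals ran from 8351775 reads in control replicate 1 to 25448025 in control replicate 2. The difference between initiation replicates 1 and 3 was smaller than sampling noise, so their mean was counted as 1 sample and each group had n = 2. Their squared differences averaged 0.402 times the counting noise, against 9.53 to 52.5 times for the other pairs within groups. Levels are given as CPM, reads scaled to a library total of 1000000, and fold changes come from a single fit over all 18830 genes that reached 1 CPM in at least 2 libraries. The labels were checked on lists of marker loci, whose identities come from general knowledge and were not checked against an annotation. A list of 6 loci for dividing cells summed to 536 and 788 CPM in control libraries, to between 1997 and 2391 CPM at initiation, and to 983 and 1313 CPM at outgrowth. All 6 were called higher than control at initiation, where 14.4% of all tested genes were. At outgrowth 1 of the 6 was, where 12.8% of all tested genes were, and their median log2 fold change was 0.47. The count at outgrowth is near that share, so it says little about the outgrowth label. A list of 7 loci for green tissue summed to 434 and 1067 CPM in control and to between 5.20 and 11.7 CPM in the 5 primordium libraries. In bulk samples, fewer cells of a type and less RNA per cell cannot be told apart. The tables of the outgrowth libraries were laid out differently from the others, and a difference in how they were made cannot be told apart from the stage.

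The PLETHORA-like genes fell into opposite patterns. OsPLT1 to OsPLT6 were higher in primordia than in ground tissue at both stages, while CRL5 and OsPLT7 were lower in primordia at both stages. OsPLT9 was low and not called in either comparison. At initiation, 6 of the 9 genes were called higher than control and 2 lower (edgeR's quasi-likelihood test, adjusted p under 0.05), where 30.4% of all tested genes were called, made up of 14.4% higher and 16.1% lower. For outgrowth the counts were again 6 higher and 2 lower, where 26.4% of all tested genes were called, 12.8% higher and 13.6% lower. Both comparisons use the same control libraries. The median log2 fold change over the 9 genes was 3.15 at initiation and 1.83 at outgrowth, against -0.05 and -0.02 over all tested genes. OsPLT3 and CRL5, which lack reads in a group, are the extremes of the 9, so putting them at the bounds given below leaves the medians over the 9 where they are. All 9 genes passed the filter on low values.

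**Figure D1:**
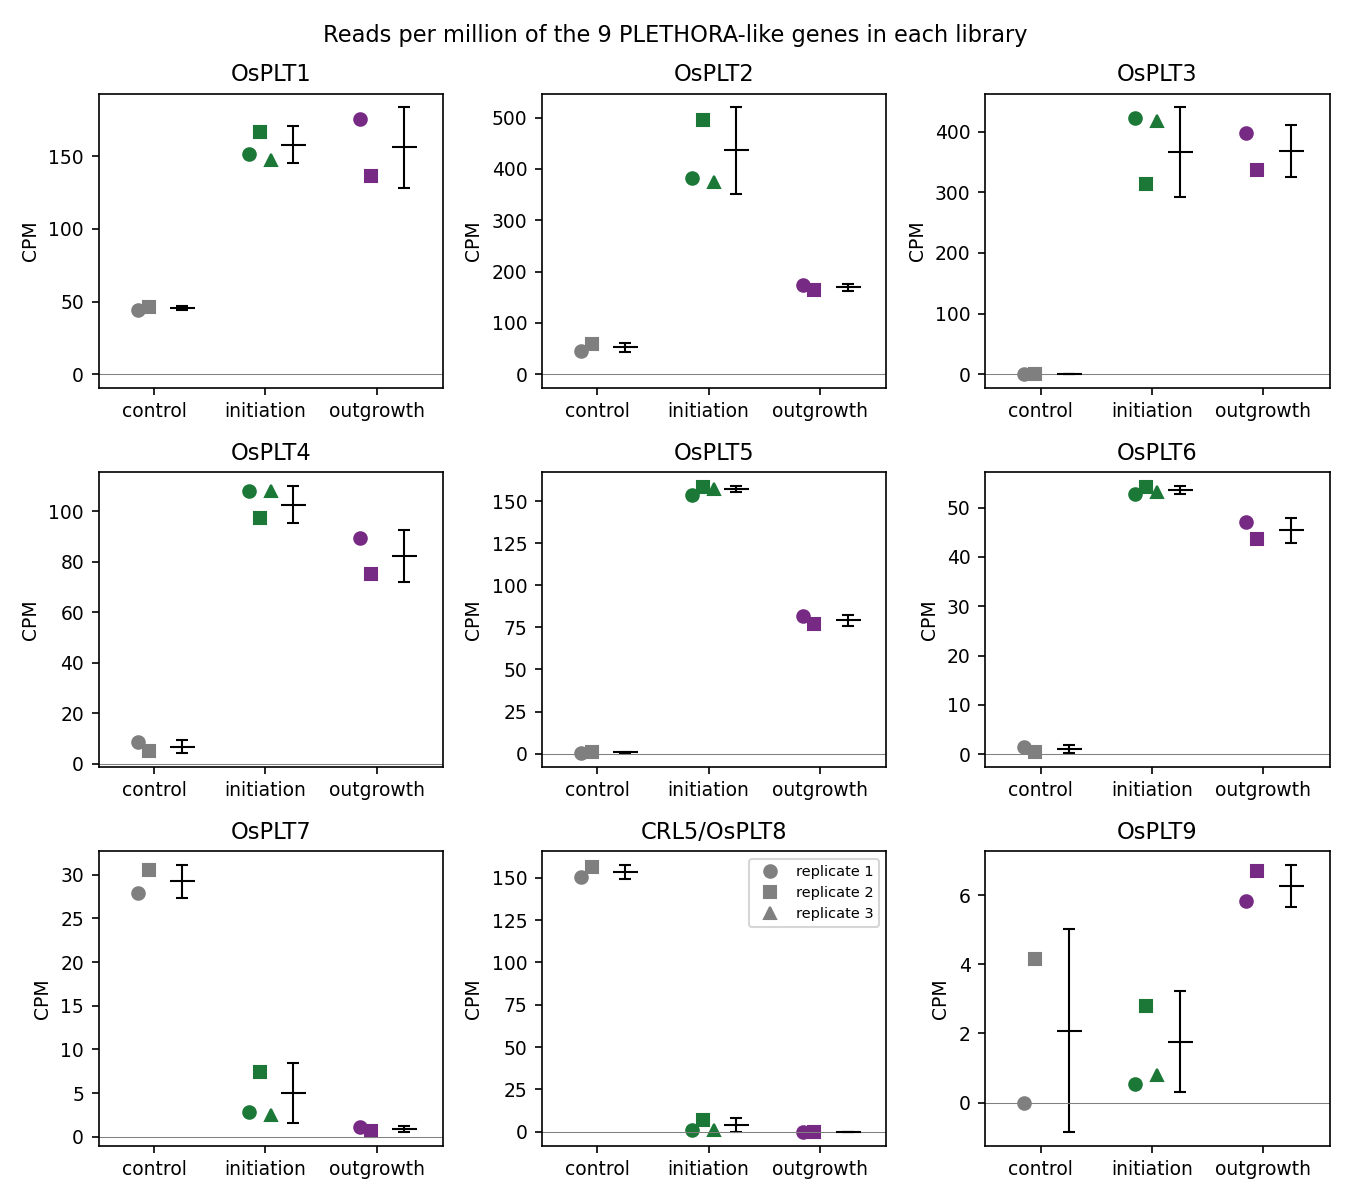
Level of each PLETHORA-like gene (vertical axis, CPM on a linear scale) in every library by group, with circles, squares and triangles for replicates 1, 2 and 3. The black bar and whiskers are the mean ± SD over n = 2 per group, initiation replicates 1 and 3 counting as 1 sample; OsPLT1 to OsPLT6 lie above control in all 5 primordium libraries, and CRL5 and OsPLT7 lie below it.

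OsPLT1 had a clear level in ground tissue, 44.3 and 46.3 CPM in control replicates 1 and 2. It stood at 151, 167 and 147 CPM in initiation replicates 1, 2 and 3 and at 176 and 136 CPM in outgrowth replicates 1 and 2. Every primordium library was above both control libraries, and the stages overlapped. The log2 fold change against control was 1.89 at initiation and 1.83 at outgrowth, each with a standard error (SE) of 0.20 (edgeR adjusted p = 0.000837 and 0.000882). Between the stages it was -0.06, with a 95% interval of -0.51 to 0.39 (edgeR adjusted p = 0.931).

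OsPLT2 was likewise present in ground tissue, at 45.7 and 59.02 CPM, and was the one gene of the family called in all 3 comparisons. Its level was 382, 496 and 374 CPM in initiation replicates 1, 2 and 3, and 175 and 164 CPM at outgrowth. The groups did not overlap, in the order control, outgrowth, initiation. Against control the log2 fold change was 3.15 (SE 0.23) at initiation and 1.73 (SE 0.22) at outgrowth (edgeR adjusted p = 0.000270 and 0.00164). From initiation to outgrowth it fell by 1.42 on the log2 scale (SE 0.22, edgeR adjusted p = 0.0210), a 2.67-fold difference. Without initiation replicate 2, the highest library, that difference was -1.18 on the log2 scale and was not called (edgeR adjusted p = 0.156). It was not called without outgrowth replicate 1 or 2 either (edgeR adjusted p = 0.219 and 0.199), when outgrowth rests on a single library and the log2 fold change was -1.44 and -1.37.

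OsPLT3, of the BABY BOOM type, had no read in either control library, and a floor of 3 counts per library limits its level to 0.359 and 0.118 CPM in control replicates 1 and 2. In primordia it was at 422, 314 and 418 CPM in initiation replicates 1, 2 and 3 and at 398 and 338 CPM in outgrowth replicates 1 and 2. The contrast was thus between no read and 3827 to 8786 reads per library. Taking 3 counts over both control libraries together, 0.0888 CPM, as the most that could have been missed, OsPLT3 was at least 4129-fold higher at initiation and at least 4144-fold higher in outgrowing primordia (edgeR adjusted p = 5.14e-05 and 4.48e-05). Without control replicate 2, the deeper one, these bounds were 1020-fold and 1024-fold. Such floors and bounds cover counting error only. The difference between the stages was -0.04 on the log2 scale with a 95% interval of -0.53 to 0.45 (edgeR adjusted p = 0.965).

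OsPLT5 and OsPLT6, also of the BABY BOOM type, were near the floor in ground tissue. OsPLT5 had 3 and 27 reads in control replicates 1 and 2, which is 0.359 and 1.06 CPM. At initiation it was at 154, 158 and 157 CPM in replicates 1, 2 and 3, and at outgrowth at 81.6 and 76.8 CPM. These groups did not overlap, and the libraries within each stage lay close together. The log2 fold change against control was 7.63 (SE 0.37) at initiation and 6.59 (SE 0.36) at outgrowth (edgeR adjusted p = 8.98e-05 and 9.52e-05). Without control replicate 2, which held most of its control reads, these were 8.88 and 7.83 on the log2 scale.

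OsPLT6, whose gene in rice is known for starting embryo growth after fertilization, had 13 and 11 reads in control replicates 1 and 2, or 1.56 and 0.432 CPM. It was at 52.7, 54.2 and 53.2 CPM in initiation replicates 1, 2 and 3 and at 47.1 and 43.6 CPM at outgrowth. All primordium libraries were far above both control libraries. The log2 fold change was 6.09 (SE 0.54) at initiation and 5.80 (SE 0.54) at outgrowth (edgeR adjusted p = 0.000448 and 0.000453). With so few control reads the size depended on the control library used: it was 6.99 and 6.70 without control replicate 1, and 5.24 and 4.94 without control replicate 2.

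OsPLT4, the remaining gene of the BABY BOOM type, had a low but measurable level in ground tissue, 8.62 and 4.87 CPM in control replicates 1 and 2. It was at 108, 97.5 and 108 CPM in initiation replicates 1, 2 and 3 and at 89.6 and 75.1 CPM at outgrowth. Its log2 fold change was 4.06 (SE 0.32) at initiation and 3.70 (SE 0.31) at outgrowth (edgeR adjusted p = 0.000316 and 0.000310). All 4 genes of the BABY BOOM type were thus called higher in primordia at both stages, where 9.60% of all tested genes were, and their control levels ran from no read to 8.62 CPM.

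CRL5 ran the other way. It was at 150.4 and 156 CPM in control replicates 1 and 2, from 1256 and 3981 reads. At initiation it was at 0.876, 6.99 and 0.808 CPM in replicates 1, 2 and 3, from 10, 105 and 17 reads. It had no read in outgrowth replicate 1 or 2, where the floor of 3 counts is 0.240 and 0.265 CPM. The order was control, initiation, outgrowth, with no overlap between groups, and the control libraries lay within a factor of 1.04 of each other.

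Initiation over control, CRL5 had a log2 fold change of -5.19 (SE 0.83, edgeR adjusted p = 0.00528). Initiation replicate 2 was 8.11 times the mean of replicates 1 and 3, and without it the log2 fold change was -7.39 (edgeR adjusted p = 0.00519). At outgrowth CRL5 was at least 1220-fold lower than in control, taking 3 counts over both outgrowth libraries, 0.126 CPM, as the floor (edgeR adjusted p = 0.00164). Without outgrowth replicate 1 or 2 that bound was 579.8-fold and 640.1-fold. Between the stages, with 132 reads over the initiation libraries and none at outgrowth, CRL5 was not called (edgeR adjusted p = 0.0774), and the ratio of means was at least 31.2-fold, or at least 6.86-fold without initiation replicate 2.

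OsPLT7 had the same order of groups, from a lower level in control. It was at 27.9 and 30.6 CPM in control, at 2.89, 7.46 and 2.47 CPM in initiation replicates 1, 2 and 3, and at 1.12 and 0.617 CPM in outgrowth replicates 1 and 2. Again no groups overlapped, and initiation replicate 2 was the highest primordium library. The log2 fold change against control was -2.44 (SE 0.61) at initiation and -5.01 (SE 0.71) at outgrowth (edgeR adjusted p = 0.0201 and 0.00232). Without initiation replicate 2 it was -3.42 at initiation (edgeR adjusted p = 0.0232). Between the stages the log2 fold change was -2.57 with a 95% interval of -4.10 to -1.04, which did not pass the test after adjustment (edgeR adjusted p = 0.0882). Without initiation replicate 2 this stage difference was -1.59 (edgeR adjusted p = 0.354).

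Markers of other tissues moved in the same direction as CRL5 and OsPLT7. All 6 tested loci of the green tissue list were called lower than control at both stages, where 10.2% of all tested genes were. The median log2 fold changes of these 6 loci were -6.82 and -6.43. In the primordium libraries 0 to 2 of the 7 loci had no read. A list of 5 KNOX homeobox loci, whose products mark the shoot meristem and stem, had 3 called lower and none higher at initiation. At outgrowth it had 4 called lower and none higher. Of all tested genes, 16.1% were called lower at initiation and 13.6% at outgrowth. The KNOX list summed to 929 and 1070 CPM in control, 383 to 408 CPM at initiation and 245 and 262 CPM at outgrowth. None of its loci lacked reads in control. The green tissue list was 2.46 times as high in control replicate 2 as in control replicate 1 and the KNOX list 1.15 times, where CRL5 differed by the factor of 1.04 given above. In initiation replicate 2, where CRL5 and OsPLT7 were highest among the primordia, the green tissue list was at 10.9 CPM against 11.7 and 11.02 CPM in initiation replicates 1 and 3, and the KNOX list at 408 against 383 and 385 CPM. The KNOX sum does not stand for each of its loci. LOC_Os01g19694, at a mean of 28.1 CPM at initiation, followed CRL5 with Pearson's r = 0.999 on log2(CPM + 1) over the 6 libraries. The part of these tissues in the levels of CRL5 and OsPLT7 was not tested.

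**Figure D2:**
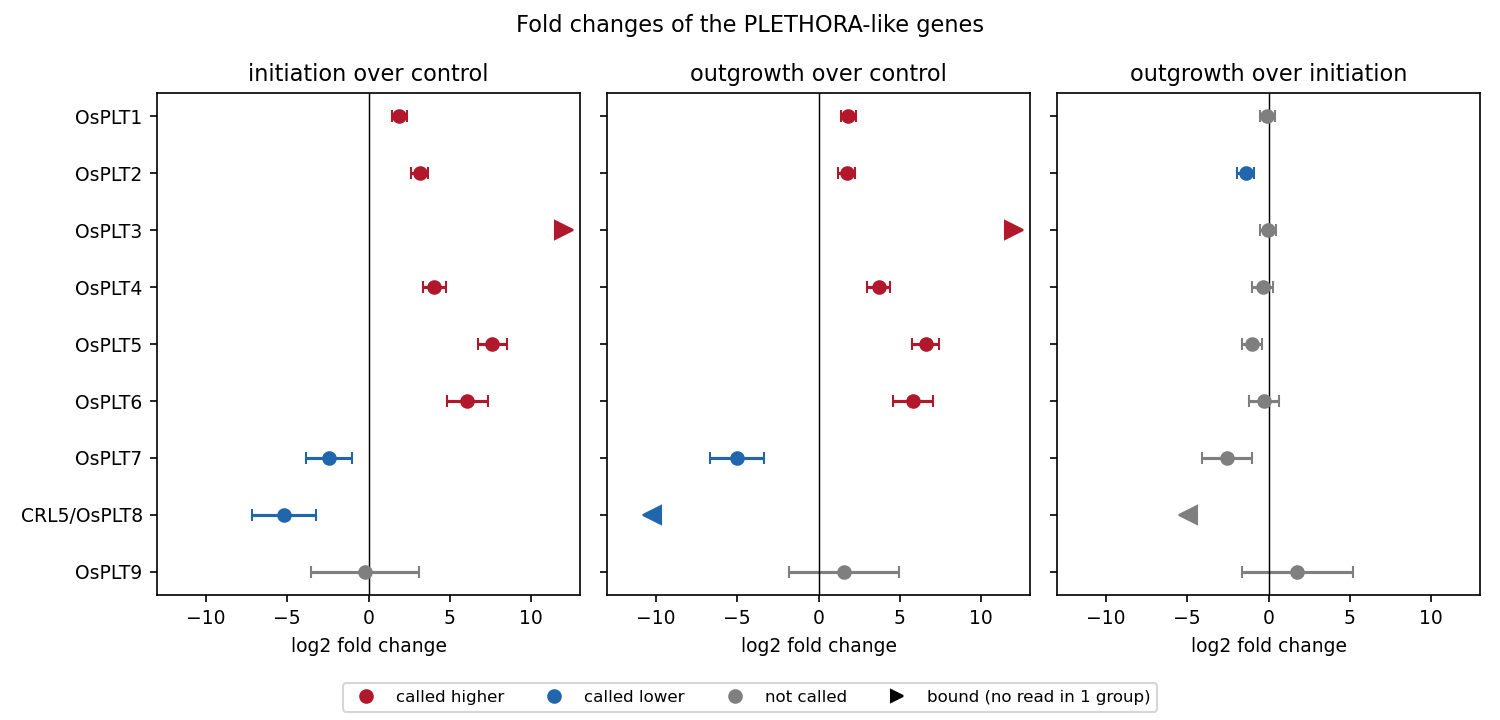
Fitted log2 fold change of each PLETHORA-like gene (horizontal axis) for initiation over control, outgrowth over control and outgrowth over initiation, with 95% intervals from the fit over n = 2 libraries per group. Triangles are lower bounds on the size of a change where a group had no read; OsPLT1 to OsPLT6 lie right of 0 in both comparisons with control, CRL5 and OsPLT7 left of 0, and OsPLT2 is the one gene called between the stages.

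OsPLT9 was at most at 6.70 CPM in any library, and its control libraries disagreed. It had no read in control replicate 1 and 106 reads, or 4.17 CPM, in control replicate 2, a level at which 34.8 reads would be expected in replicate 1. At initiation it was at 0.526, 2.80 and 0.808 CPM in replicates 1, 2 and 3, and at outgrowth at 5.83 and 6.70 CPM. Both outgrowth libraries were above all others, yet no comparison passed the test. The log2 fold change was -0.20 at initiation (95% interval -3.53 to 3.13, edgeR adjusted p = 0.934) and 1.57 at outgrowth (95% interval -1.79 to 4.93, edgeR adjusted p = 0.461). Without control replicate 2 it was called higher than control at both stages, against a single library with no read (edgeR adjusted p = 0.0290 and 0.0114).

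Between outgrowth and initiation, 1 of the 9 genes was called lower and none higher, where 3.08% of all tested genes were called, 1.83% lower and 1.25% higher. At an unadjusted p below 0.05 there were 4 of the 9, against 3270 of all 18830 tested genes. These 4 were OsPLT2, OsPLT5, OsPLT7 and CRL5, all lower at outgrowth. The called gene was OsPLT2. The outgrowth libraries of OsPLT5 were both below all initiation libraries, with a log2 fold change of -1.04 and a 95% interval of -1.64 to -0.43, but OsPLT5 did not pass after adjustment (edgeR adjusted p = 0.0836). OsPLT4 had a log2 fold change of -0.36 (95% interval -0.999 to 0.27, edgeR adjusted p = 0.582) and OsPLT6 one of -0.29 (95% interval -1.21 to 0.64, edgeR adjusted p = 0.811). OsPLT9 had the one positive value, 1.77, with a 95% interval of -1.64 to 5.17 (edgeR adjusted p = 0.629). The median over the 9 genes was -0.36, against 0.03 over all tested genes. The dividing-cell list moved the same way, with 2 of its 6 loci lower at outgrowth than at initiation, none higher, and a median of -1.05 on the log2 scale; its part in the stage values was not tested.

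The make-up of the family's reads does not depend on the scaling between libraries, although shares of reads are not corrected for gene length and so do not rank the genes by transcript number. The 9 genes together took 279 and 303 CPM in control, 1274, 1304 and 1261 CPM in initiation replicates 1, 2 and 3, and 974 and 841 CPM at outgrowth. CRL5 gave 53.9% of the family's reads in control replicate 1 (95% Clopper-Pearson interval 51.9% to 56.0%) and 51.7% in replicate 2 (50.5% to 52.8%). Its share was 0.0688%, 0.536% and 0.0641% in initiation replicates 1, 2 and 3. In outgrowth it was 0 of 12188 and 0 of 9531 reads, which allows shares of up to 0.0246% and 0.0315%. OsPLT3 took the place of the largest share in outgrowth, with 40.9% and 40.2%, and had 33.1%, 24.1% and 33.1% at initiation. In control it was 0 of 2329 and 0 of 7706 reads, which allows up to 0.129% and 0.0389%. The share of OsPLT2 was highest at initiation, at 30.0%, 38.04% and 29.6%, against 17.9% and 19.5% at outgrowth and 16.4% and 19.5% in control. The share of OsPLT1 varied least among these, from 11.7% in initiation replicate 3 to 18.1% in outgrowth replicate 1.

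**Figure D3:**
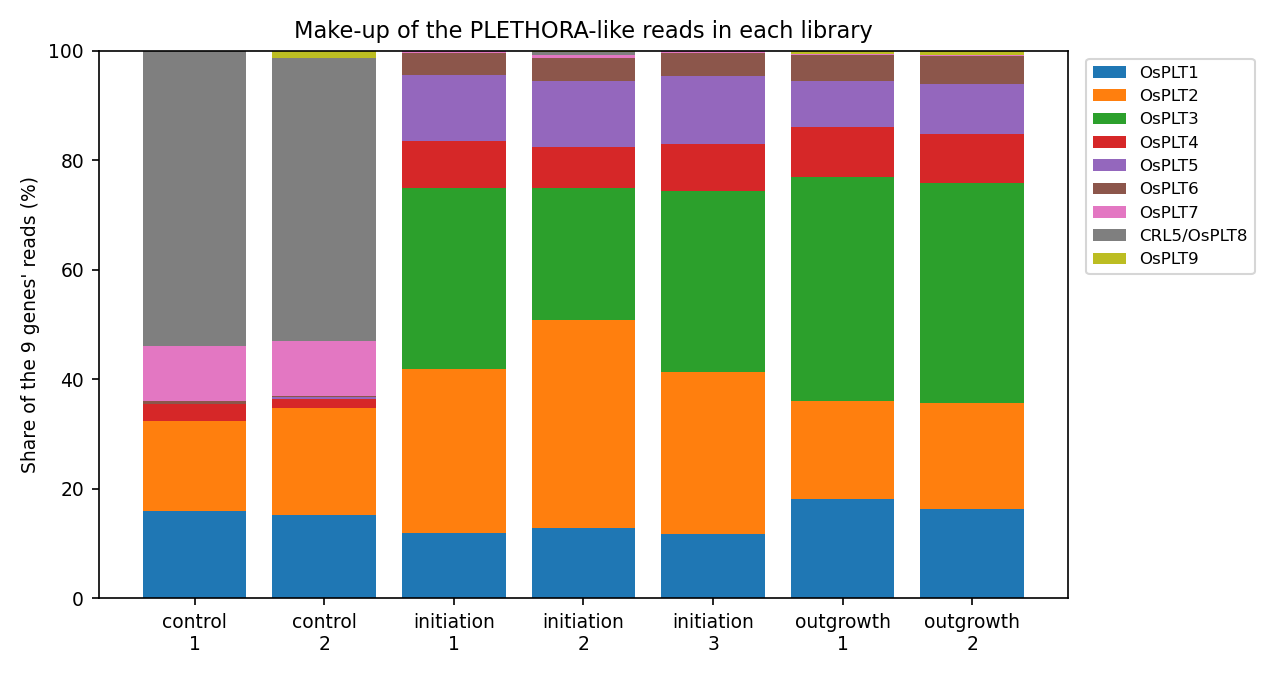
Share of the summed reads of the 9 PLETHORA-like genes taken by each gene (vertical axis, percent, stacked) in each of the 7 libraries. CRL5 takes 53.9% and 51.7% in the control libraries and at most 0.536% in any primordium library, where OsPLT2 and OsPLT3 take the largest shares.

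Ratios of reads between members of the same library show how the genes moved against each other. OsPLT2 had 2.52, 2.97 and 2.54 reads for each read of OsPLT1 in initiation replicates 1, 2 and 3. At outgrowth the ratio was 0.993 and 1.20, and in control 1.03 and 1.28. The outgrowth and control ratios overlapped, and all initiation ratios were above both. Within the BABY BOOM type, OsPLT5 had 1.42, 1.63 and 1.46 reads for each read of OsPLT4 at initiation and 0.911 and 1.02 at outgrowth, without overlap. In control that ratio was 0.0417 and 0.218. OsPLT6 kept more even terms with OsPLT4 across the stages, at 0.488, 0.555 and 0.493 at initiation and 0.526 and 0.580 at outgrowth, where the ranges overlapped. For OsPLT3 over OsPLT1 the ratio was 2.79, 1.88 and 2.83 at initiation and 2.26 and 2.47 at outgrowth, and the lowest value came from initiation replicate 2. CRL5 had 5.39 and 5.12 reads for each read of OsPLT7 in control and 0.303, 0.938 and 0.327 at initiation. These ratios are described without a test.

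**Figure D4:**
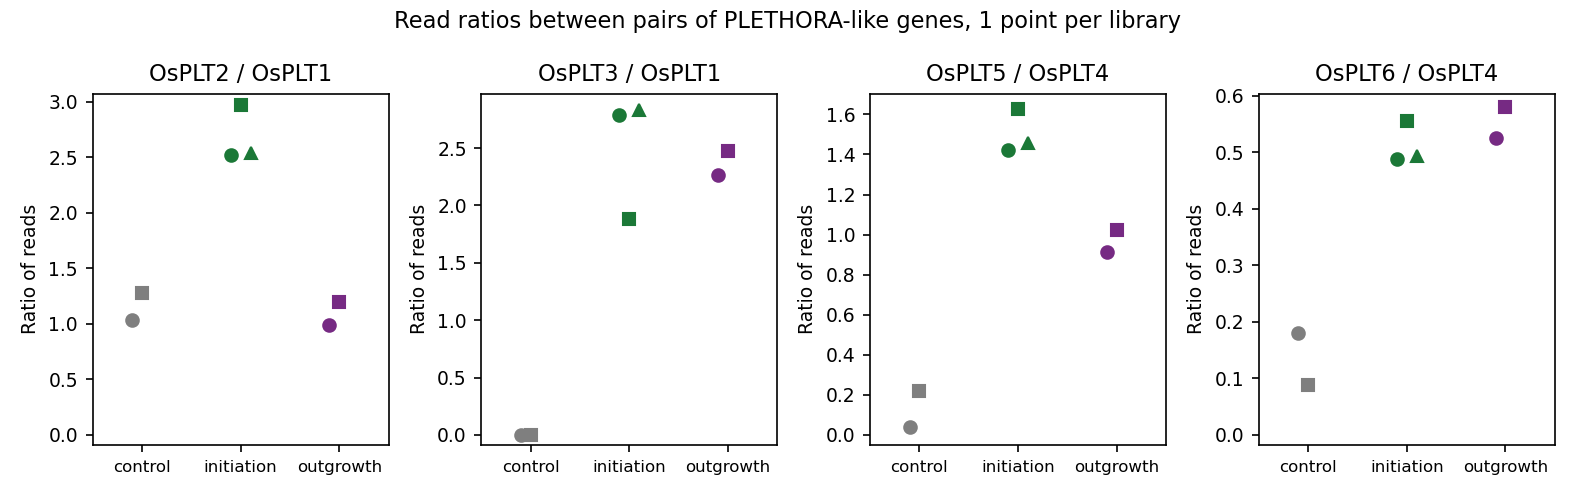
Ratio of reads between pairs of PLETHORA-like genes within a library (vertical axis, linear), with 1 point per library and circles, squares and triangles for replicates 1, 2 and 3. OsPLT2 over OsPLT1 and OsPLT5 over OsPLT4 are higher in all 3 initiation libraries than in outgrowth, while OsPLT6 over OsPLT4 overlaps between the stages.

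Other genes with profiles like CRL5 and OsPLT3 were ranked by Pearson's r of log2(CPM + 1) over the 6 libraries, as a description over groups that stand apart, among 16025 genes with a mean of at least 5 CPM in their highest group. For CRL5 the nearest was LOC_Os01g19694, a locus of the KNOX list, with r = 0.999 and mean levels of 142, 28.1 and 12.9 CPM in control, initiation and outgrowth. LOC_Os01g10580 and LOC_Os07g10530 followed, each with r = 0.998. For OsPLT3 the nearest was LOC_Os12g22800 (r = 0.9998), with means of 0.336, 324 and 308 CPM in these groups. LOC_Os06g33940 and LOC_Os02g09760 followed, each with r = 0.999. Of the 16025 genes, 37 had r over 0.99 with CRL5 and 98 with OsPLT3, so the genes named here are not alone. These values rest on only 6 libraries and were not tested.

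Beside the family, a list of 15 loci published for other crown root regulators was read in the same fit. It covers auxin and cytokinin response, WOX homeobox, GRAS and PIN genes, and its identities were not checked against an annotation. Of these, 14 were in the files and all 14 were tested. At initiation 5 were called higher and 3 lower than control, against 14.4% and 16.1% of all tested genes. At outgrowth 2 were called higher and 4 lower, against 12.8% and 13.6%. Between the stages none was called higher and 3 lower at outgrowth, against 1.25% and 1.83%. The list's median log2 fold change was 0.84, -0.20 and -1.44 in these comparisons, against -0.05, -0.02 and 0.03 over all tested genes. The list summed to 855 and 977 CPM in control, 1250 to 1585 CPM at initiation and 544 and 631 CPM at outgrowth.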

How the data were processed

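The 7 deposited tables pair identifiers with values under an FPKM heading. The deposited values were taken as counts of reads per gene, because all are whole and their totals differ between libraries. Whole values cannot show whether reads were scaled or pooled earlier. Initiation replicates 1 and 3 differed by only 0.402 times the counting noise, and the cause was not tested. Genes not listed were taken as 0. The aligner was STAR, per the submitters' processing notes, and a SMARTer low-input kit served for the libraries, per the labels' protocols. For counting tool, strand setting, build and annotation the answer is not given in the sources used here, so reads of related or overlapping genes may be divided between them.

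Initiation replicates 1 and 3 were averaged and rounded. The test was edgeR 4.0.16 (glmQLFit, glmQLFTest; R 4.3.3) with TMM factors, on 6 libraries in a joint fit of 3 group means, with 3 residual degrees of freedom. Genes with at least 1 CPM in 2 libraries were tested, p-values are two-sided and Benjamini-Hochberg adjusted over 18830 genes, and the threshold was 0.05. Printed CPM use file totals; folds use TMM. Alternatives used DESeq2 1.42.0, limma 3.58.1, other scalings, filters and libraries.

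All 9 members are named, with 3 most similar genes for CRL5 and OsPLT3. Members and lists were chosen with earlier results of these data known. Clopper-Pearson intervals cover counting error only.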

Additional observations from a re-analysis of the deposited data

Results flagged for a closer look

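OsPLT2 was singled out because its difference from control differed between the stages by a test of the stages themselves, with a log2 fold change of outgrowth over initiation of -1.42 (edgeR adjusted p = 0.0210). All 3 initiation libraries, at 374 to 496 CPM, were above both outgrowth libraries, at 164 and 175 CPM. It was not called without initiation replicate 2, outgrowth replicate 1 or outgrowth replicate 2, as given above, and was still called without initiation replicate 1 or 3 (edgeR adjusted p = 0.0220 and 0.0199).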

How the results depend on the processing

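Of 18 member results against control, 16 were called in the main analysis and under all 19 alternatives, with the same direction. The remaining pair were the results for OsPLT9, which reversed at initiation, with log2 fold changes of -1.48 to 7.55 when 1 library was left out, the highest without control replicate 2. Leaving out 1 library gave 3076 to 7970 genes called for initiation with control, 1523 to 7590 for outgrowth with control and 0 to 1808 for outgrowth with initiation, with 5729, 4976 and 580 in the main analysis. Members called against control were then 8 to 9 at each stage, and 0 to 2 between the stages. Calls on the regulator list ranged over 5 to 8, 5 to 8 and 0 to 8 in the 3 comparisons. Without an abundance trend, 4493 genes and 5 regulators were called at initiation against control, with 5729 and 8 in the main analysis. Between the stages, edgeR called 0 genes, 0 members and 0 regulators without an abundance trend (2997 genes at an unadjusted p below 0.05), and 0 genes without outgrowth replicate 1 or 2 (1446 and 1694 unadjusted). DESeq2 called 1822 genes, 4 members and 8 regulators there, no low filter 1523, 4 and 8, a fit of only the stages 1949, 2 and 7, and initiation replicates 1 and 3 kept separate 1624, 2 and 6. Limma on log2(CPM + 1) called 1032 genes, 1 member and 5 regulators. With log2(CPM + 0.1), limma called 722 genes, 2 members and 3 regulators. The cause was not tested. With replicate number as a block, 5136, 4401 and 617 genes and 8, 8 and 1 members were called. Deviations of same-numbered libraries correlated at 0.02, 0.01 and -0.03, with initiation replicate 1 entering as its mean with replicate 3. Which plants went into which library is not stated, so these values cannot show whether such libraries share plants or a batch. CRL5 between the stages was called in 3 of 18 alternatives, OsPLT5 in 6 of 19 and OsPLT7 in 2 of 19. The control levels of OsPLT5 and OsPLT6 rest on 30 and 24 reads, which limits the precision of their folds. For OsPLT9, control replicate 1 had no read where 34.8 were expected at the level of replicate 2.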

Other observations

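At a threshold of 100 CPM, chosen after the values were seen, CRL5 and OsPLT3 each stood alone. Of 1796 genes with at least 100 CPM in both control libraries, 1 had no read in either outgrowth library, and it was CRL5; 5 were under 1 CPM in both. Of 1559 genes with at least 100 CPM in all 5 primordium libraries, 1 had no read in either control library, and it was OsPLT3; 4 were under 1 CPM in both.

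The higher level of CRL5 and OsPLT7 in initiation replicate 2 was not shared by most genes that were lower in primordia. Among 1914 genes called lower than control at both stages, the median log2 ratio of initiation replicate 2 to the mean of replicates 1 and 3, with 1 CPM added, was -0.03, and 35.8% were higher in replicate 2. Over all 18830 tested genes the median was -0.05 and the share 43.0%. Why CRL5 and OsPLT7 were higher in initiation replicate 2 was not tested.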
